A study of Mus musculus with 12 samples.

Results

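The Toll-like receptors (TLRs) sense microbial products, and they depend on a small set of partner proteins to do so. These partners are the subject here, as 10 genes picked by symbol from the 24421 rows of the count table: the co-receptors Cd14 and Ly96, the trafficking chaperone Unc93b1, the adaptors Myd88, Ticam1 and Ticam2, and the kinases Irak1, Irak2, Irak3 and Irak4. All 10 passed the filter on low counts that left 11468 genes for testing. In textbook outline, CD14 hands lipopolysaccharide to the complex of LY96 and TLR4, and UNC93B1 carries the nucleic acid-sensing TLRs from the endoplasmic reticulum to endosomes. An engaged TLR then recruits either MYD88, which assembles the IRAK kinases and leads to NF-kB, or TICAM1 (TRIF), which leads to type I interferon and which TLR4 reaches only through the bridging adaptor TICAM2 (TRAM). MYD88 and the IRAKs serve the IL-1 and IL-18 receptors as well.

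The RNA came from bone marrow-derived macrophages (BMDMs) of wild-type C57BL/6 mice, grown for 5 days in 100 ng/mL M-CSF with new medium on day 3. Cells were exposed for 4 hours to ovalbumin alone (Ova) or to insoluble immune complexes of ovalbumin and IgG (IC), which cross-link Fc gamma receptors, together with 5% DMSO or with 5.0 µM I-BET151 (iBET), an inhibitor that keeps the BET bromodomain proteins off acetylated histones. This gave 4 groups of 3 libraries, DMSO Ova, DMSO IC, iBET Ova and iBET IC. By the labels, each of 3 mice (A, B and C) gave 1 library to every group. The iBET Ova libraries of mice A and B correlated better with each other's DMSO libraries than with their own. Per-mouse and block results that use these libraries thus rest on the labels. The labels have iBET and the stimulus added together while the study's methods place iBET first, no group was left without ovalbumin, and no TLR ligand was among the listed treatments.

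Levels are given as CPM, counts scaled to a common library size with TMM factors, and each value after a mean is the SD over 3 libraries (n = 3). Library totals ran from 7.55 M to 17.4 M counts. In DMSO Ova mouse A, 77.38% of the counts fell on Rn45s, the ribosomal RNA precursor, which left 1.77 M for all other genes, whereas the other libraries kept 7.25 M to 16.9 M. Rn45s took 7.829% in DMSO IC mouse A and 1.411 to 4.401% in the other 10 libraries. DMSO IC mouse A also stood apart from the rest of its group over all genes, less far than DMSO Ova mouse A did. The 10 genes together had 1791 counts in DMSO Ova mouse A, so results in which that library stands apart are given below with and without it. All 8 macrophage markers (among them Csf1r, Adgre1 and Lyz2) were expressed, with a summed level of 6215 to 7614 CPM in the DMSO libraries and 7395 to 8786 CPM in the iBET libraries. With iBET, 2 of these 8 were called higher in Ova and 3 in IC, and their part in the results was not tested. Markers of other cells were low: 5.65 to 35.1 CPM summed for neutrophils, 0.514 to 1.55 CPM for dendritic cells (Zbtb46, the only one tested, was called higher with iBET in Ova), 0 to 0.337 CPM for lymphocytes (Nkg7 at 0 in every library), 0.36 to 2.57 CPM for stroma, 37.1 to 69.8 CPM for the erythroid and megakaryocyte list, of which Pf4 held most and Hbb-bs and Hba-a1 were at 0, and 0 CPM for all 5 mast cell and basophil markers. In bulk RNA, fewer cells expressing a gene and less of its RNA per cell cannot be told apart.

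Since long genes collect more counts, the 10 genes were ranked by CPM per kb of exon. In DMSO Ova BMDMs, Cd14 had the highest level, 194 ± 40.8 CPM per kb, followed by Unc93b1 with 109 ± 12.8 and Myd88 with 20.6 ± 2.58. These 3 led in this order in all 4 groups. Below them came Irak1 (14.7 ± 4.09 CPM per kb), Irak4 (13 ± 7.47), Ly96 (10.5 ± 7.5), Irak3 (7.57 ± 0.935), Irak2 (6.72 ± 0.785), Ticam1 (6.06 ± 1.11) and Ticam2 (4.14 ± 0.320). From Irak1 down to Ticam1 each gene's 3 libraries overlapped those of the next in the order, so that stretch has no settled ranking, while Ticam2, with a highest library of 4.45 CPM per kb, lay under the lowest Ticam1 library of 4.81. Ticam2 was last in every group, at 1.63 ± 0.372 CPM per kb in iBET Ova and 1.05 ± 0.105 in iBET IC. Ly96 moved from rank 6 in DMSO Ova to rank 9 in both iBET groups, and Irak2 moved from rank 8 in DMSO Ova to rank 5 in DMSO IC.

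**Figure D1:**
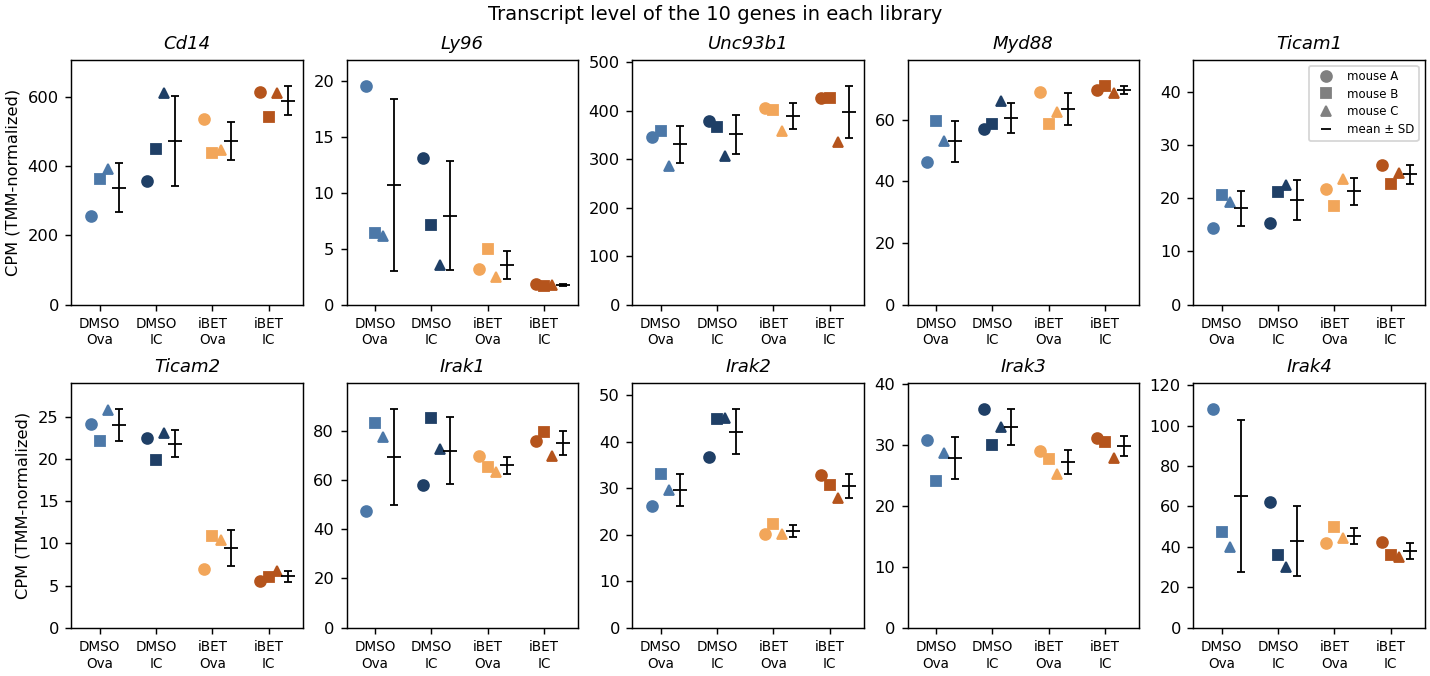
TMM-normalized CPM (vertical axes, from 0, a separate scale for each gene) of the 10 genes in the 4 groups; the symbol shape gives the mouse, and the black bar is the mean ± SD of 3 libraries. Ticam2 separates the iBET libraries (5.5 to 10.9 CPM) from the DMSO libraries (19.9 to 25.8 CPM), whereas Ly96 and Irak4 are highest in DMSO Ova mouse A (19.5 and 108 CPM) and next in DMSO IC mouse A (13.1 and 62.3 CPM).

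The comparison of iBET with DMSO asked how BET inhibition altered these transcripts in BMDMs given Ova or given IC. Ticam2, the TRAM adaptor, and Irak2 fell with iBET in both settings, and Ly96, the TLR4 partner, fell with iBET in IC. No gene of the 10 was called higher in either setting. In Ova, 2 of 10 were called, against 31.3% of all genes tested (14.2% called lower and 17.1% called higher), and the 10 genes had a median log2 fold change of -0.06 beside 0.02 for all genes. In IC, 3 of 10 were called, against 34.8% of all genes (15.8% lower and 19.0% higher), with a median of -0.04 beside -0.00. Both shares were near those of all genes. The calls are from edgeR's quasi-likelihood test with Benjamini-Hochberg adjustment over all genes tested, at an adjusted p under 0.05. By DESeq2 (backgrounds 28.3% in Ova and 30.4% in IC) and by limma (30.7% and 31.9%), Ticam2, Irak2 and Ly96 were called in both settings, 3 of 10 each time. The 3 iBET libraries did not overlap the 3 DMSO libraries for 1 gene on the higher side (25.2% of all genes) and 3 on the lower (19.9%) in Ova, and for 2 on the higher (26.3%) and 3 on the lower (22.3%) in IC. With mouse as a replicate block, 5 of 10 were called in Ova (block background 38.3%), Ly96, Ticam2 and Irak2 lower and Cd14 and Unc93b1 higher, while in IC the block called 3 of 10, the same genes as without it (block background 42.1%).

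**Figure D2:**
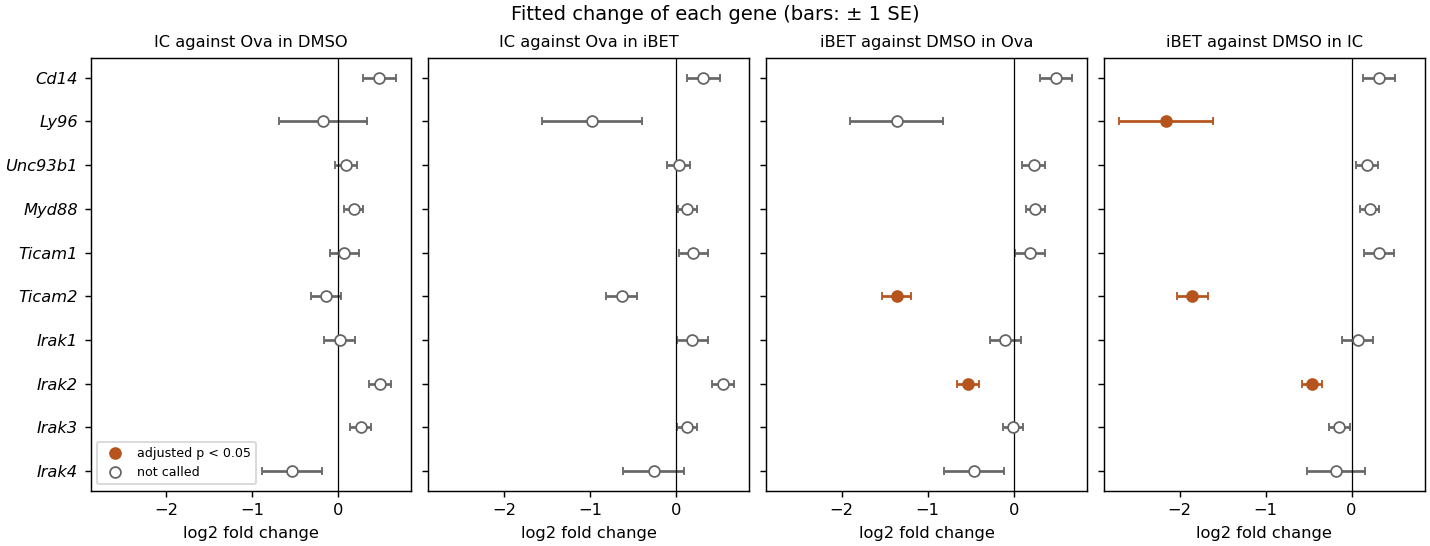
Fitted log2 fold change (horizontal axes, bars ± 1 SE) of each of the 10 genes in 4 comparisons; filled orange points have an adjusted p under 0.05. Ticam2 (-1.36 and -1.85) and Irak2 (-0.53 and -0.46) are called under iBET in both stimulations, Ly96 (-2.16) in IC, and no gene is called for IC against Ova.

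Cd14 lies on chromosome 18 (36725067 to 36726798, minus strand, GENCODE vM21 annotation of GRCm38) and encodes the GPI-anchored receptor that passes lipopolysaccharide on. Its DMSO Ova libraries from mice A, B and C had 257, 363 and 391 CPM and its iBET Ova libraries 536, 437 and 446 CPM, so the lowest iBET library was above the highest DMSO library. The fitted log2 fold change was 0.49 (SE 0.19, 95% interval 0.07 to 0.91, higher in 3 of 3 mice), with an edgeR adjusted p of 0.0747. Mouse A contributed 1.06 on the log2 scale, mouse B 0.27 and mouse C 0.19. Without DMSO Ova mouse A the estimate was 0.28 (adjusted p = 0.309), and with mouse as a replicate block it was 0.51 and was called (adjusted p = 0.0474). In IC, Cd14 had 356, 448 and 611 CPM with DMSO and 614, 541 and 611 CPM with iBET, and these groups overlapped. The corresponding log2 fold change was 0.32 (SE 0.19, adjusted p = 0.219), with 0.79 in mouse A, 0.27 in mouse B and -0.00 in mouse C. Left without DMSO IC mouse C, the same comparison gave 0.55 and was called (adjusted p = 0.0359). Left without DMSO IC mouse A it was not called (adjusted p = 0.643). Over the 12 fits that left out 1 library the estimate ran from 0.13 to 0.55, so a rise in IC is not established.

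Ly96 lies on chromosome 1 (16688051 to 16709611, plus strand) and encodes the secreted protein that forms the lipopolysaccharide-binding pocket beside TLR4. It was the least counted of the 10, with 15 counts in its lowest library, iBET IC mouse C (exact Poisson interval 8.4 to 24.7 at 95%, counting error only), and 156 in its highest. In DMSO Ova it had 19.5, 6.36 and 6.13 CPM in mice A, B and C, against 3.16, 4.96 and 2.48 CPM in iBET Ova. Mouse A held the high value, but all 3 iBET libraries were under all 3 DMSO libraries. The log2 fold change of -1.36 (SE 0.54, 95% interval -2.55 to -0.17, lower in 3 of 3 mice) had an adjusted p of 0.0789. Mouse A gave -2.56, mouse B -0.35 and mouse C -1.24, and without DMSO Ova mouse A the estimate was -0.88 (adjusted p = 0.157). Under the replicate block it was -1.38 and called (adjusted p = 0.0176), as it also was by DESeq2 at -1.54 (adjusted p = 0.0126). Leaving out the DMSO IC library of mouse A, which belongs to neither group, moved the adjusted p to 0.037, and leaving out that of mouse C moved it to 0.0435.

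In IC, Ly96 had 13.1, 7.15 and 3.53 CPM with DMSO and 1.87, 1.65 and 1.8 CPM with iBET. The iBET libraries were close to each other and the DMSO libraries spread widely, with no overlap between them. Ly96 fell by 2.16 on the log2 scale (SE 0.55, 95% interval -3.36 to -0.95, adjusted p = 0.0104), a 4.46-fold lower fitted level, and was lower in 3 of 3 mice (-2.69, -2.00 and -0.90). Without DMSO IC mouse A the change was -1.60 (adjusted p = 0.0372), and without mouse A in all groups it was -1.63 (adjusted p = 0.0127). Leaving out mouse B ended the call (adjusted p = 0.0971), which held in each of the 12 fits that left out 1 library.

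Unc93b1 (chromosome 19, 3935186 to 3949340, plus strand) was abundant in every library, between 286 and 427 CPM. Its iBET Ova libraries had 405, 400.4 and 357 CPM against 346, 359 and 286 CPM in DMSO Ova, each mouse's iBET library being the higher. The log2 fold change was 0.23 (SE 0.13, adjusted p = 0.204), which the replicate block called (0.23, adjusted p = 0.0325). In IC it was 0.18 (SE 0.13, 95% interval -0.11 to 0.46, adjusted p = 0.317), again higher in 3 of 3 mice, and the groups overlapped in both settings.

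Ticam2 lies on chromosome 18 (46557291 to 46574533, minus strand) and encodes the sorting adaptor TRAM, which joins internalized TLR4 to TRIF. In DMSO Ova it had 24.1, 22.1 and 25.8 CPM in mice A, B and C, and in iBET Ova 6.95, 10.9 and 10.4 CPM. DMSO IC libraries held 22.5, 19.9 and 23.0 CPM and iBET IC libraries 5.5, 6.01 and 6.71 CPM. The 6 iBET libraries were all under the 6 DMSO libraries, and DMSO Ova mouse A lay between the other two of its group. Ticam2 fell by 1.36 on the log2 scale in Ova (SE 0.17, 95% interval -1.74 to -0.98, adjusted p = 0.000112), 2.56-fold lower, with -1.77, -1 and -1.30 in the 3 mice. In IC it fell by 1.85 (SE 0.18, 95% interval -2.23 to -1.47, adjusted p = 1.05e-05), 3.61-fold lower, with -1.99, -1.70 and -1.75. Without DMSO Ova mouse A the Ova value was -1.40 (adjusted p = 0.000187). The call held in every alternative fit in both settings, the highest adjusted p being 0.0101 in Ova and 0.00376 in IC, each without mouse B. Ticam2 shares 838 bp of exon, 14.5% of its exon length, with Tmed7 on the same strand, so counts in that stretch are uncertain between the 2 genes. Tmed7, a cargo receptor of the early secretory pathway, was not called with iBET, with a log2 fold change of -0.06 in Ova (adjusted p = 0.785) and of 0.19 after IC (adjusted p = 0.351), on levels of 148 ± 15.3 CPM in DMSO Ova and 142 ± 20.5 CPM in iBET Ova. Without mouse A in all groups Tmed7 was called lower in Ova (-0.29, adjusted p = 0.044) and was not called in IC (0.05, adjusted p = 0.754).

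The partner that TRAM recruits, TRIF, is encoded by Ticam1 (chromosome 17, 56269319 to 56276786, minus strand), and this gene was not called. Ticam1 had 14.4, 20.6 and 19.4 CPM in DMSO Ova and 21.7, 18.5 and 23.7 CPM in iBET Ova, with a log2 fold change of 0.19 (SE 0.17, 95% interval -0.19 to 0.57, adjusted p = 0.442). Without DMSO Ova mouse A the Ova value was 0.04 (adjusted p = 0.896). In IC the DMSO libraries had 15.3, 21.2 and 22.5 CPM and the iBET libraries 26.2, 22.6 and 24.8 CPM, without overlap. The log2 fold change of Ticam1 there was 0.32 (SE 0.17, 95% interval -0.05 to 0.69, adjusted p = 0.163). Mouse A gave 0.76, mouse B 0.09 and mouse C 0.14, and without DMSO IC mouse A the adjusted p was 0.57. The 95% intervals of Ticam1 and Ticam2 did not meet in either setting.

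Myd88 (chromosome 9, 119335934 to 119341411, minus strand), the adaptor of every TLR except TLR3, had 46.2, 59.5 and 53.1 CPM in DMSO Ova and 69.1, 58.8 and 62.7 CPM in iBET Ova. Its log2 fold change was 0.25 (SE 0.11, adjusted p = 0.105, higher in 2 of 3 mice). In IC it was 0.21 (SE 0.11, adjusted p = 0.159, higher in 3 of 3 mice), where the iBET libraries, 68.6 to 70.9 CPM, were all above the DMSO libraries, 56.9 to 66 CPM. The 95% intervals for Myd88, which are not adjusted over genes, were 0.01 to 0.49 in Ova and -0.03 to 0.44 in IC. Without DMSO Ova mouse A the Ova value was 0.12 (adjusted p = 0.438), so a rise in Ova is not established. The exons of Myd88 overlap those of Acaa1a on the opposite strand by 290 bp, 11.3% of their length, and the strand setting of the counting is not given in the sources used here. Opposite-strand overlaps also touch Irak4 (Twf1, 395 bp, 7.87%), Irak3 (Tmbim4, 192 bp, 5.22%) and Irak2 (Gm43963, 196 bp, 4.44%). Gm43963 has no row of its own in the counts.

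**Figure D3:**
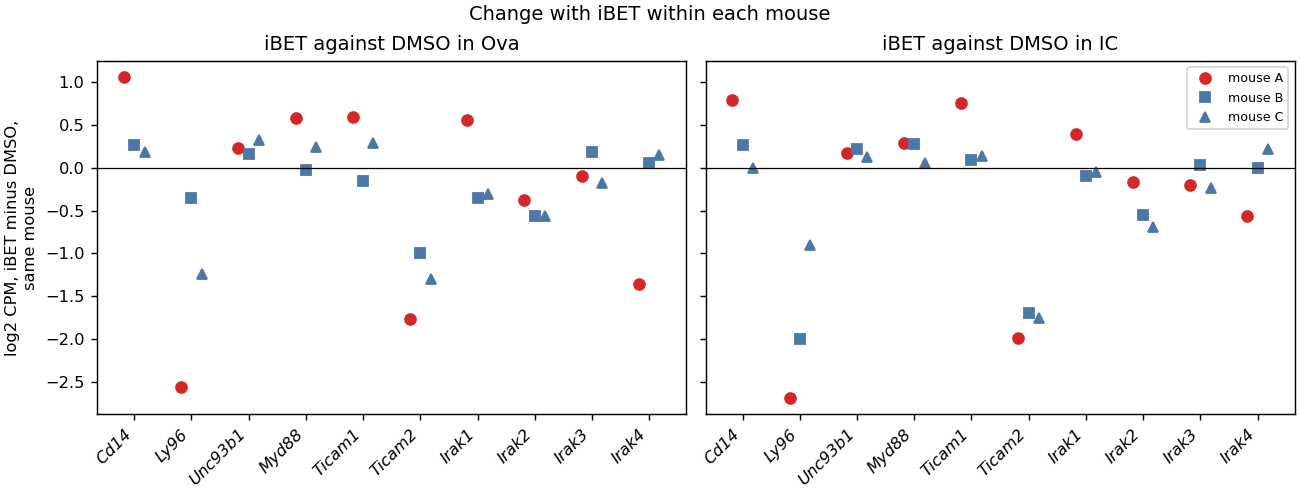
Difference in log2 CPM between the iBET and the DMSO library of the same mouse (vertical axis) for each of the 10 genes, in Ova (left) and IC (right), with mouse A in red. Ticam2, Irak2 and Ly96 lie under 0 in all 3 mice in both panels. Mouse A is the farthest from 0 in both panels for Cd14 (1.06 and 0.79) and for Ly96 (-2.56 and -2.69). The same holds for Myd88, Ticam1, Ticam2, Irak1 and Irak4. The pairing of mice A and B in the left panel rests on the labels.

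Of the 4 IRAKs, Irak2 was called lower with iBET in both settings and the other 3 in neither. Differences between the kinases were not tested. Irak4 is the kinase that MYD88 recruits first, Irak1 and Irak2 are the kinases that act after it and pass the signal to TRAF6, and Irak3 (IRAK-M) is known in macrophages as a brake on TLR signalling. Irak2 (chromosome 6, 113638467 to 113695026, plus strand) had 26.2, 33.1 and 29.7 CPM in DMSO Ova and 20.1, 22.4 and 20.1 CPM in iBET Ova, and it had 36.7, 44.8 and 45.1 CPM in DMSO IC and 32.9, 30.6 and 27.9 CPM in iBET IC. In each stimulation the iBET libraries were all under the DMSO libraries. Irak2 fell by 0.53 on the log2 scale in Ova (SE 0.13, adjusted p = 0.00769, lower in 3 of 3 mice), 1.44-fold, and by 0.46 in IC (SE 0.12, adjusted p = 0.011, lower in 3 of 3 mice), 1.38-fold. Mouse A showed the smallest drop, -0.38 in Ova and -0.16 in IC, beside -0.56 and -0.55 in mouse B and -0.56 and -0.69 in mouse C. Without DMSO Ova mouse A the Ova value was -0.64 (adjusted p = 0.00382). Leaving out a mouse cost the Irak2 call in both settings for mouse B and for mouse C, to an adjusted p of at most 0.131 in Ova and 0.18 in IC, and leaving out iBET IC mouse C alone gave 0.0506 in IC.

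Irak1 (chromosome X, 74013914 to 74023918, minus strand) had 65.9 ± 3.33 CPM in iBET Ova and 69.3 ± 19.3 CPM in DMSO Ova, a log2 fold change of -0.10 (SE 0.18, 95% interval -0.49 to 0.29, adjusted p = 0.713). The DMSO Ova libraries of Irak1 had 47.3, 83.1 and 77.5 CPM, mouse A being the low one. Without that library alone the Ova value was -0.33 and was not called (adjusted p = 0.111). Without mouse A in all groups Irak1 was called lower with iBET in Ova (-0.35, adjusted p = 0.0294). In IC it was 0.07 (SE 0.18, adjusted p = 0.804), on 75.0 ± 4.91 CPM with iBET and 71.8 ± 13.6 CPM with DMSO.

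Irak3 (chromosome 10, 120141648 to 120202130, minus strand) had nearly the same mean in DMSO Ova and iBET Ova, 27.8 ± 3.44 and 27.2 ± 1.95 CPM, and the interval of the log2 difference was -0.28 to 0.26 (adjusted p = 0.961). In IC its log2 fold change was -0.14 (SE 0.12, 95% interval -0.40 to 0.12, adjusted p = 0.393).

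Irak4 (chromosome 15, 94543643 to 94581815, plus strand) had 108, 47.5 and 40 CPM in DMSO Ova and 42.1, 49.6 and 44.3 CPM in iBET Ova. DMSO Ova mouse A was the highest library, and DMSO IC mouse A, at 62.3 CPM beside 36.2 and 29.8 CPM, was the second highest of all 12 libraries. The log2 fold change in Ova was -0.46 (SE 0.35, adjusted p = 0.357, lower in 1 of 3 mice) and became 0.00 (adjusted p = 0.999) without DMSO Ova mouse A. In IC it was -0.18 (SE 0.34, 95% interval -0.94 to 0.58, adjusted p = 0.722). Both intervals hold 0, so changes of either sign remain possible given the spread between mice.

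To show the sequence in front of a kinase gene that fell with iBET beside one that was not called, the 250 bases before the annotated start of Irak2 (GRCm38.p6, chr6:113638217-113638466, plus strand) and of Irak1 (chrX:74023919-74024168, minus strand) are given, taken from RefSeq and read 5′ to 3′ toward the start, with motif matches in capitals.
Irak2: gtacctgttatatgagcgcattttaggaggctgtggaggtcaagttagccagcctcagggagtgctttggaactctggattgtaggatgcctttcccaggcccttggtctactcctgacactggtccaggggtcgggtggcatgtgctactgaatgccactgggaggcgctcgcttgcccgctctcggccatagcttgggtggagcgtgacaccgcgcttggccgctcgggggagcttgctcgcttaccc
Irak1: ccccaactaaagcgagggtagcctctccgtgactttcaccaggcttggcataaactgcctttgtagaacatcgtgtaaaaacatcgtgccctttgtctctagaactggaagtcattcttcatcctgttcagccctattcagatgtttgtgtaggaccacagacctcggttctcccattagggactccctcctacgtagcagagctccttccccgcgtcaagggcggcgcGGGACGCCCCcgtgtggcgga
The windows of 6 of the 10 genes were at hand (Irak1, Irak2, Irak3, Irak4, Myd88 and Ticam1), and 5 motifs were searched on both strands: the kappaB-type (GGGA, any 4 bases, CC), the AP-1 motif TGANTCA, the interferon-response type (GAAA, any 2 bases, GAAA), the E-box CACGTG and the PU.1-type GAGGAA. No match overlapped another. Over the 32851 mouse windows of this kind, 17.6%, 6.75%, 2.98%, 6.02% and 23.3% held them, in that order. The Irak2 window held none of the 5, and its GC content was 60% with 12 CpG. The Irak1 window held a kappaB-type match that began 21 bases before the start, with 14 CpG, and a second annotated start 3 bases away shares it. Irak3 had a kappaB-type match before 1 of its 2 starts, Myd88 an interferon-response type match, Ticam1 an E-box and a PU.1-type match, and Irak4 none. These are matches of letters only, and occupancy was not measured.

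The comparison of IC with Ova asked how Fc gamma receptor cross-linking altered the same transcripts. None of the 10 was called by edgeR in DMSO BMDMs (0 of 10, background 1.22%, or 140 genes, with Cd14 and Irak2, 2 of the 10, at an unadjusted p under 0.05), by DESeq2 (0 of 10, background 2.45%) or by limma (0 of 10, background 1.13%). In iBET-treated BMDMs edgeR again called 0 of 10 (background 0.349%, or 40 genes, with Irak2 and Ticam2, 2 of 10, at an unadjusted p under 0.05), limma called 0 (background 0.314%) and DESeq2 called 1, Irak2 (background 0.859%). The libraries of the 2 stimuli did not overlap for 1 gene in DMSO, Irak2, on the higher side (7.80% of all genes) and for 0 on the lower (7.47%). With iBET they did not overlap for Cd14, Irak1 and Irak2 on the higher side (9.53% of all genes) and for Ly96 and Ticam2 on the lower (9.34%).

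Irak2 had the smallest p of the 10 in both arms. It was 29.7 ± 3.46 CPM in DMSO Ova and 42.2 ± 4.76 CPM in DMSO IC, a log2 fold change of 0.49 (SE 0.13, 95% interval 0.21 to 0.76, higher in 3 of 3 mice) with an edgeR adjusted p of 0.0969. With iBET it was 20.8 ± 1.34 CPM in Ova and 30.5 ± 2.50 CPM in IC, at 0.55 (SE 0.13, 95% interval 0.28 to 0.82, adjusted p = 0.126, higher in 3 of 3 mice). By DESeq2 the second value was 0.56 with an adjusted p of 0.0306, and when the 2 iBET groups were fitted alone it was 0.57 with an adjusted p of 0.0491. The mean of iBET IC was thus close to that of DMSO Ova, and the difference between the IC responses of the 2 arms was 0.06 (SE 0.18, 95% interval -0.32 to 0.45, unadjusted p = 0.724).

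Cd14 was 337 ± 70.7 CPM in DMSO Ova and 472 ± 129 CPM in DMSO IC (log2 fold change 0.48, SE 0.19, edgeR adjusted p = 0.338, higher in 3 of 3 mice), and 473 ± 54.6 CPM in iBET Ova and 589 ± 41.4 CPM in iBET IC (0.32, SE 0.19, adjusted p = 0.786, higher in 3 of 3 mice). Ticam2 was -0.14 (SE 0.17, adjusted p = 0.873) in DMSO and -0.63 (SE 0.18, adjusted p = 0.272) with iBET, where all 3 IC libraries lay under all 3 Ova libraries. Ly96 was -0.18 (SE 0.51, adjusted p = 0.963) in DMSO and -0.98 (SE 0.58, adjusted p = 0.774) with iBET. Irak3 was 0.26 (SE 0.12, adjusted p = 0.445) in DMSO and 0.13 (SE 0.12, adjusted p = 0.872) with iBET, and Irak4 was -0.54 (SE 0.35, adjusted p = 0.656) and -0.26 (SE 0.35, adjusted p = 0.926). Without DMSO Ova mouse A the Irak4 value in DMSO was -0.06 (adjusted p = 0.945). Myd88, Ticam1, Irak1 and Unc93b1 had log2 fold changes between 0.02 and 0.20 in the 2 arms. The median of the 10 was 0.08 in DMSO and 0.13 with iBET, beside -0.01 for all genes in both.

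Whether iBET acted differently in IC and in Ova was tested as an interaction, which edgeR and limma each called for 0 of 10 genes (background 0.00%) and DESeq2 likewise for 0 of 10 (background 0.0239%). At an unadjusted p under 0.05, edgeR had 0 of the 10 and 292 genes in all. Ticam2 came nearest, the iBET change being lower in IC by 0.49 on the log2 scale (interaction -0.49, SE 0.25, 95% interval -1.03 to 0.04, unadjusted p = 0.0663, the same sign in 3 of 3 mice). For Ly96 the interaction was -0.80 (SE 0.77, 95% interval -2.49 to 0.89), so the call in IC and its absence in Ova do not show that the 2 settings differ. The other 8 genes had interactions between -0.17 and 0.28.

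The genes on either side of the 10 in the pathway were read from 5 lists of 60 genes, of which 53 were tested. With iBET 28 of 53 were called in Ova (10 higher, 18 lower) and 27 in IC (8 higher, 19 lower), which is 52.8% and 50.9% beside 31.3% and 34.8% of all genes. The lists were chosen with earlier results of these data known, so these shares and those below only describe the lists. All 9 TLR genes tested were called lower in Ova and 8 of 9 in IC (14.2% and 15.8% of all genes), with median log2 fold changes of -1.65 and -1.27. Tlr4, the partner of Cd14, Ly96 and Ticam2, fell by 2.04 in Ova (SE 0.11, adjusted p = 2.4e-07), from 117 ± 7.67 to 28.3 ± 3.74 CPM, and by 1.45 in IC (SE 0.11, adjusted p = 2.01e-06). Tlr13, a sensor of bacterial ribosomal RNA that is a client of UNC93B1, fell by 2.21 and 2.10, and Tlr1, which pairs with TLR2, by 1.92 and 1.69. Tlr2 fell in Ova (-0.58, adjusted p = 0.0212) and was not called in IC (-0.18, adjusted p = 0.407).

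Among the other adaptors, co-receptors and chaperones, 1 of 10 was called higher and 3 lower in each setting, 40% called, near the 31.3% and 34.8% of all genes. Cd180, a TLR4-like receptor of the cell surface, fell by 1.95 and 2.00, Tirap, the adaptor that brings MYD88 to the membrane, by 0.59 and 0.68, and Pik3ap1 by 0.78 and 0.65, in Ova and IC. The Pik3ap1 call in IC was lost without mouse A (-0.70, adjusted p = 0.0936). Sarm1 was called higher (1.2 and 1.72) on 1 to 30 counts per library, and in Ova that call was lost without DMSO Ova mouse A (1.07, adjusted p = 0.084). Of the IL-1 and IL-18 receptor subunits, Il1rap, the shared accessory chain of IL-1 receptors, was higher (0.86 and 0.96), and Il18rap (-2.41 and -1.85) and Il1rl1 (-1.37 and -1.03) were lower in both settings, the Il1rl1 call in IC being lost without mouse A (-1.03, adjusted p = 0.0803). Il1r2, a decoy receptor, was called lower in IC (-2.81, adjusted p = 0.018) and not without mouse A (-1.46, adjusted p = 0.285).

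**Figure D4:**
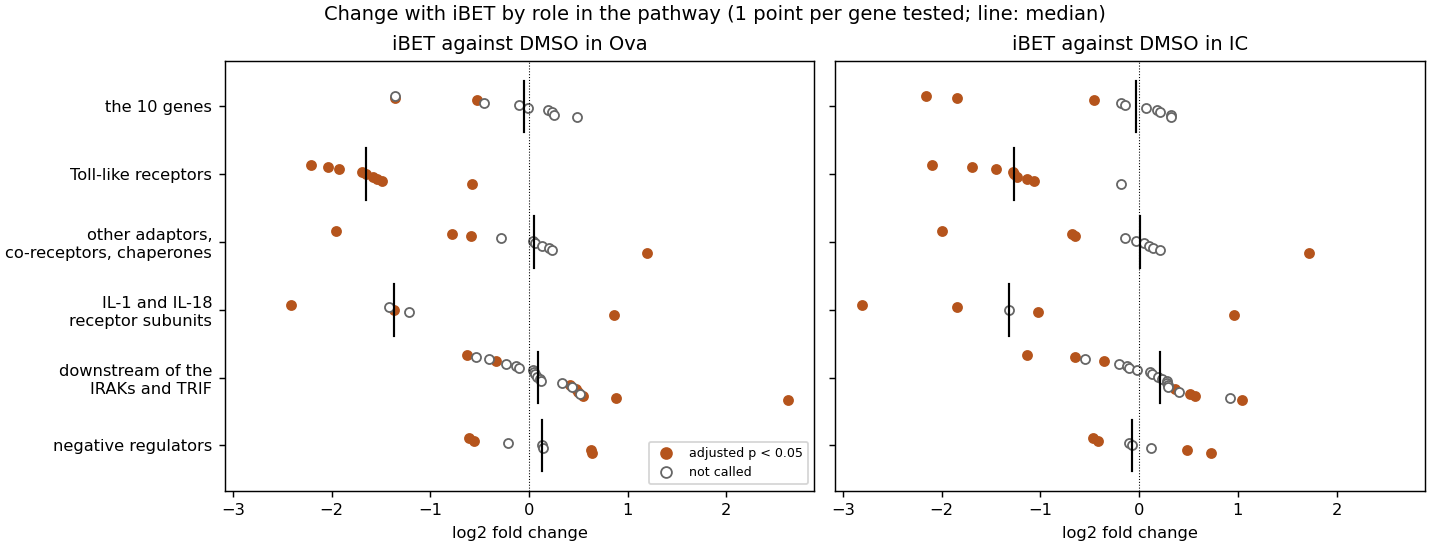
Fitted log2 fold change with iBET (horizontal axis) of every tested gene of the 10 and of 5 pathway lists, in Ova (left) and IC (right); filled orange points have an adjusted p under 0.05 and black lines are medians. The TLR genes lie to the left (medians -1.65 and -1.27), while the medians of the 10 partner genes (-0.06 and -0.04) are close to 0.

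Downstream of the IRAKs and TRIF, 6 of 22 genes were called higher and 2 lower in Ova, and 4 higher and 3 lower in IC, shares of 36.4% and 31.8% that are near those of all genes (31.3% and 34.8%). Peli1, a ubiquitin ligase that acts on the IRAKs and RIPK1, rose by 0.88 and 1.04, to 127 ± 6.61 CPM in iBET IC from 61.6 ± 3.67 CPM in DMSO IC, and Ripk1, a kinase that TRIF engages, rose by 0.55 and 0.57. Ikbke, an IRF3-activating kinase, fell by 0.63 and 1.14, Ikbkg by 0.33 and 0.36, and Tab1 by 0.65 in IC (adjusted p = 0.0193). Peli3 was called higher in Ova (2.62, SE 0.61, adjusted p = 0.00641) on 0, 3 and 1 counts in the DMSO Ova libraries and 15, 9 and 6 in iBET Ova, too few to fix its size. Of the 7 negative regulators tested, Tollip (0.63 and 0.73) and Rnf216 (0.64 and 0.48) were higher and Dok3 (-0.61 and -0.47) and Tnfaip3 (-0.56 and -0.42) were lower. For IC against Ova, 4 of 53 were called in DMSO (7.55%, beside 1.22% of all genes) and 2 of 53 with iBET (3.77%, beside 0.349%), or 4 of 53 with iBET when mouse A was left out, a fit that called 305 genes in all. Tlr2 (1.09 and 1.49) and Tnfaip3, a ubiquitin-editing inhibitor of NF-kB (1.34 and 1.48), rose in both arms, and in DMSO Ikbke rose by 0.83 while Tlr4 fell by 0.61.

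The genes most like the 3 that fell were sought among 9427 genes by the root mean square difference of mean-centred log2 CPM over the 12 libraries, where 0 is an identical pattern. Smim3 (0.07) and Alkbh1 (0.12) were nearest to Irak2, and Timeless (0.23) and Fmnl1 (0.23) to Ticam2. Apobr (0.36) and Rbmx2 (0.37) were nearest to Ly96, and like Ly96 both had their highest library in DMSO Ova mouse A (392 CPM for Apobr, 26.7 CPM for Rbmx2). The spread of the 4 group means on the log2 scale ran from 2.26 for Ly96 and 1.95 for Ticam2 over 1.01 for Irak2 and 0.83 for Cd14 to 0.19 for Irak1.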

How the data were processed

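RNA from 12 BMDM libraries was sequenced after preparation with a SMARTer pico input total RNA kit. Per the labels, the authors used CASAVA, FastQC, Trim Galore, HISAT2 and featureCounts with mm10, and deposited whole-number counts per gene. Versions, annotation, strand setting and treatment of multimapping reads are not given in the sources used here. A second deposited table, a signal of normalized counts, equals the counts over median-of-ratios size factors (largest relative gap 6.5e-15).

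Counts were fitted in edgeR 4.0.16 (R 4.3.3) with TMM factors, filterByExpr at its defaults, a robust quasi-likelihood fit with 1 term for each of the 4 groups and all 12 libraries, and Benjamini-Hochberg adjustment over 11468 genes at 0.05. SEs are the log2 fold change over the root of F. The text names all 10 genes in every comparison, up to 2 called genes per direction, list and comparison among the pathway lists, and the 2 nearest patterns. The fit was tested on simulated data. Intervals and adjusted p-values of this fit reflect the spread between libraries within a group, pooled over the 4 groups, and leave out the pairing by mouse. DESeq2 1.42.0, limma 3.58.1 on log2 of the normalized counts + 1, sva 3.50.0, a mouse block, other filters and omitted libraries served as alternatives. The labels name the mouse, so samples are paired: 18 same-mouse pairs of libraries from different groups had correlated deviations of -0.0725 to 0.542 (median 0.263), against -0.499 to 0.271 (median -0.134) for 36 pairs of different mice. In iBET Ova, mouse A correlated at -0.0506 and -0.0725 with its own DMSO libraries and at 0.234 and 0.271 with those of mouse B. Mouse B there had -0.0566 and -0.00682 with its own and 0.178 and 0.258 with those of mouse A. The pairing of these libraries, and their per-mouse iBET differences in Ova, thus rest on the labels. The reason was not tested. Replicates differed beyond sampling noise. The chi-square per degree of freedom between libraries of a group was 65.4 and 63.5 for the pairs with DMSO Ova mouse A. It was 36 and 46.6 for the pairs with DMSO IC mouse A, and 8.14 to 19.6 for all other pairs. Exon lengths and coordinates are from GENCODE vM21 (GRCm38), promoter windows from RefSeq. The members and lists were chosen with earlier results of these data known.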

Additional observations from a re-analysis of the deposited data

How the results depend on the processing

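Of 440 refits of a member's log2 fold change under alternatives that kept all libraries, 425 kept their direction and their side of the threshold, 11 became called and 4 reversed. With 1 surrogate variable the reversed values were Irak1 for IC against Ova in DMSO (-0.04), Irak3 for iBET in Ova (0.03), and Irak1 (-0.02) and Irak4 (0.11) for iBET in IC. For iBET in Ova, 5 members were called with the mouse block and 4 with 1 surrogate variable, against 2, and leaving out 1 library or mouse gave 1 to 4. For iBET in IC, leaving out gave 1 to 4 against 3. For IC against Ova in DMSO, 1 surrogate variable called 1 member (Irak2). For IC against Ova in iBET, DESeq2, the 2 groups alone and 1 surrogate variable each called 1 (Irak2). In both IC comparisons and the interaction, leaving out called 0. The block changed no other member's call. Leaving out 1 library or mouse reversed some uncalled estimates. For IC in DMSO the ranges were Ly96 -0.75 to 0.32, Ticam1 -0.05 to 0.22, Irak1 -0.18 to 0.16 and Unc93b1 -0.01 to 0.18, and for IC in iBET Unc93b1 -0.02 to 0.14. For iBET in Ova they were Irak1 -0.35 to 0.06, Irak3 -0.12 to 0.08 and Irak4 -0.73 to 0.07, and in IC Irak1 -0.10 to 0.21 and Irak4 -0.38 to 0.17. For the interaction they were Cd14 -0.32 to 0.07, Myd88 -0.23 to 0.07, Ticam1 -0.01 to 0.28, Irak2 -0.03 to 0.16, Irak4 -0.19 to 0.64 and Unc93b1 -0.14 to 0.05. The cause was not tested.

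Over all genes, IC against Ova called 140 in DMSO and 40 in iBET, 315 and 85 with the block, 270 and 103 by DESeq2, 435 and 115 with 1 surrogate variable, and 5 and 99 with the 2 groups alone. Leaving out a library or mouse gave 0 to 159 and 0 to 305, the lowest without mouse B. For iBET, 3593 genes in Ova and 3987 in IC became 1310 and 1769 at the lowest. The interaction called 0, and 4 by DESeq2. Counts over the 5 pathway lists without DMSO Ova mouse A and without mouse A were added after seeing the data. With the longest transcript as length, Irak4 passed Irak1 and Irak2 passed Irak3 in DMSO Ova. Ly96 had the lowest count of the members (15). Without DMSO Ova mouse A, the iBET estimates in Ova moved by over 1.5 times for several members. Among these were Cd14, Ly96, Myd88, Ticam1, Irak1 and Irak4.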
